A study of Mus musculus with 6 samples.

Results

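The genes described here form 4 isoform pairs of metabolic enzymes: Cpt1b with Cpt1a, Cox7a1 with Cox7a2, Fbp2 with Fbp1, and Eno2 with Eno1. In each pair the first gene encodes the form of muscle or another extrahepatic tissue, and the second the form of liver or of most tissues. The members were selected on the measured values of these same livers, so their own levels and differences are given as a description, without a test. Every probe carrying one of the 8 gene symbols was taken, which gave 9 probes of the 25697 on the array and 8 of its 18138 symbols. Cpt1b had 2 probes and each other gene had 1.

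The livers came from male mice on the FVB/N background (FVB in the labels) at postnatal day 6. By the definitions in the study's methods, all 6 mice carried a single-copy Signalox-hSRY transgene. In it the ubiquitously active CAG promoter drives either DsRed2 or, after Cre recombination, a FLAG-tagged human SRY linked to EGFP. By the same definitions the 3 hSRY-OFF livers were from mice with the cassette not recombined, a state in which DsRed2 is expressed. The paper also calls the hSRY-OFF mice controls, a name its methods give to littermates that lack this transgene. The 3 hSRY-ON livers were from mice in which recombination, brought about through Ddx4-Cre mothers, had switched on human SRY from the earliest embryo onwards, and animals that carried Ddx4-Cre themselves were not used. SRY, the testis-determining factor, is a transcription factor of the Y chromosome that the liver does not normally use, and the promoter that drives it is not specific to hepatocytes. RNA was hybridised to MouseRef-8 v2.0 BeadChips, 1 array per mouse.

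Isoforms of a metabolic enzyme catalyse the same reaction and are encoded by separate genes. CPT1, carnitine palmitoyltransferase of the outer mitochondrial membrane, makes the acylcarnitines by which long-chain fatty acids enter mitochondria. Cpt1a is its liver form and Cpt1b its muscle form. COX7A is a small subunit of cytochrome c oxidase, the last complex of the respiratory chain, with Cox7a1 as the heart and muscle form and Cox7a2 as the form of liver and most other tissues. Fructose bisphosphatase removes a phosphate from fructose bisphosphate on the path to glucose. Its Fbp1 form serves gluconeogenesis in liver and kidney, whereas Fbp2 is the muscle form. Enolase makes phosphoenolpyruvate in glycolysis. Eno1 is its widespread form, and Eno2 is the enolase of neurons and neuroendocrine cells. The muscle enolase is Eno3, so the enolase pair contrasts a neuronal and not a muscle form with that of the liver.

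The promoters of Cox7a1, Fbp2 and Eno2, which rose together, and of Fbp1, which moved opposite to its neighbour Fbp2, are shown as a description. Both forms are shown for the fructose bisphosphatase pair only. The table of RefSeq promoters used here, on GRCm38.p6, held 9 promoters of 7 of the 8 genes, all but Cpt1b. Each sequence below is the 250 bases before the annotated start, 5′ to 3′ on the gene's strand, with matches to 3 searched motifs in capitals. The motifs were AGGTCA, the half-site of nuclear receptors; ACGTG, the core of the hypoxia response element; and TATAAA, the TATA box. Both strands were searched. Cox7a1 lies on the plus strand at chr7:30183921-30184170. Fbp2 lies on the minus strand at chr13:62858401-62858650, and Fbp1, the next annotated gene, on the same strand at chr13:62888283-62888532. Eno2 lies on the minus strand at chr6:124769674-124769923.
Cox7a1: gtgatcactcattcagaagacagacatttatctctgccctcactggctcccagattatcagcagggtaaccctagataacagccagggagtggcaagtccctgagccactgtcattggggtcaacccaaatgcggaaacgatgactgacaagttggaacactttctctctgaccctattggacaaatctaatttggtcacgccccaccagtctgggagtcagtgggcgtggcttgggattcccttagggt
Fbp2: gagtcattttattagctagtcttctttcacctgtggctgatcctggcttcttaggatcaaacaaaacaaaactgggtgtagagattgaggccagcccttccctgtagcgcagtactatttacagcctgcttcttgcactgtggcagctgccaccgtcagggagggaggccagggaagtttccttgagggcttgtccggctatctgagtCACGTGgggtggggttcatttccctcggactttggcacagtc
Fbp1: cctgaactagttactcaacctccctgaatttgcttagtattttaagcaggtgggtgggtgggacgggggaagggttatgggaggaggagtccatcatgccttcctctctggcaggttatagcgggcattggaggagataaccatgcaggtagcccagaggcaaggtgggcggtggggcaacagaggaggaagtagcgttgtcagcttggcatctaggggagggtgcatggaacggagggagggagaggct
Eno2: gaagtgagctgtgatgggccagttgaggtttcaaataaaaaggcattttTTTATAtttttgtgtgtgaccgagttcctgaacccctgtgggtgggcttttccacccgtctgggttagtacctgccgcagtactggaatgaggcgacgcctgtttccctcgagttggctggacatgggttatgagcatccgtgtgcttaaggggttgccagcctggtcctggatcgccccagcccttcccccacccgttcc
The Fbp2 promoter held CACGTG, in which ACGTG reads on both strands and the 2 matches overlap, 42 and 41 bases before the start. The Eno2 promoter held TATAAA on the opposite strand, 201 bases before the start. Neither Cox7a1 nor Fbp1 matched any of the 3 motifs. Of the promoters not shown, that of Cpt1a held AGGTCA 94 bases before the start, and an Eno1 promoter held it 162 bases before. The other Eno1 promoters and that of Cox7a2 matched none of the 3 motifs. Over all 32851 mouse promoters of this length, 14.0% held AGGTCA, 16.6% held ACGTG and 12.4% held TATAAA, so a match is a common feature of such windows and is given as a description.

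Median intensity ran from 147 to 165 and the number of probes detected, at a detection p-value under 0.01, from 10318 to 10762 per array. Over the tested probes, arrays correlated at 0.987 to 0.992 within hSRY-OFF, at 0.965 to 0.982 within hSRY-ON and at 0.912 to 0.939 between the groups. The array has no probe named for the human transgene, and the mouse Sry probe was detected on 0 of 6 arrays, so the labels could not be checked against the transgene itself. Values are background-corrected, quantile-normalized log2 intensities. A probe was tested when it was detected on at least 3 arrays, and 10734 were. Of these, 33.1% passed an adjusted p under 0.05 in limma's moderated test, 15.8% as higher and 17.3% as lower in hSRY-ON, and 50% had values that did not overlap between the groups.

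In hSRY-ON livers the extrahepatic forms Cpt1b, Cox7a1, Fbp2 and Eno2 stood 3.52 to 4.13 log2 units above hSRY-OFF livers, from signals at or near background. Of their liver counterparts, Fbp1 was 0.90 log2 units lower, Eno1 was 1.02 log2 units higher, and Cpt1a and Cox7a2 gave no signal from which a difference could be read. Of the 9 member probes 7 were tested, 6 of which passed the threshold as higher and 1 as lower. The probes of Cpt1b and Eno2 reached the test only through their hSRY-ON arrays, so they had to differ. That of Fbp2, detected in 1 hSRY-OFF liver, would also have missed the filter without its hSRY-ON arrays. Nothing is read from these counts.

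**Figure D1:**
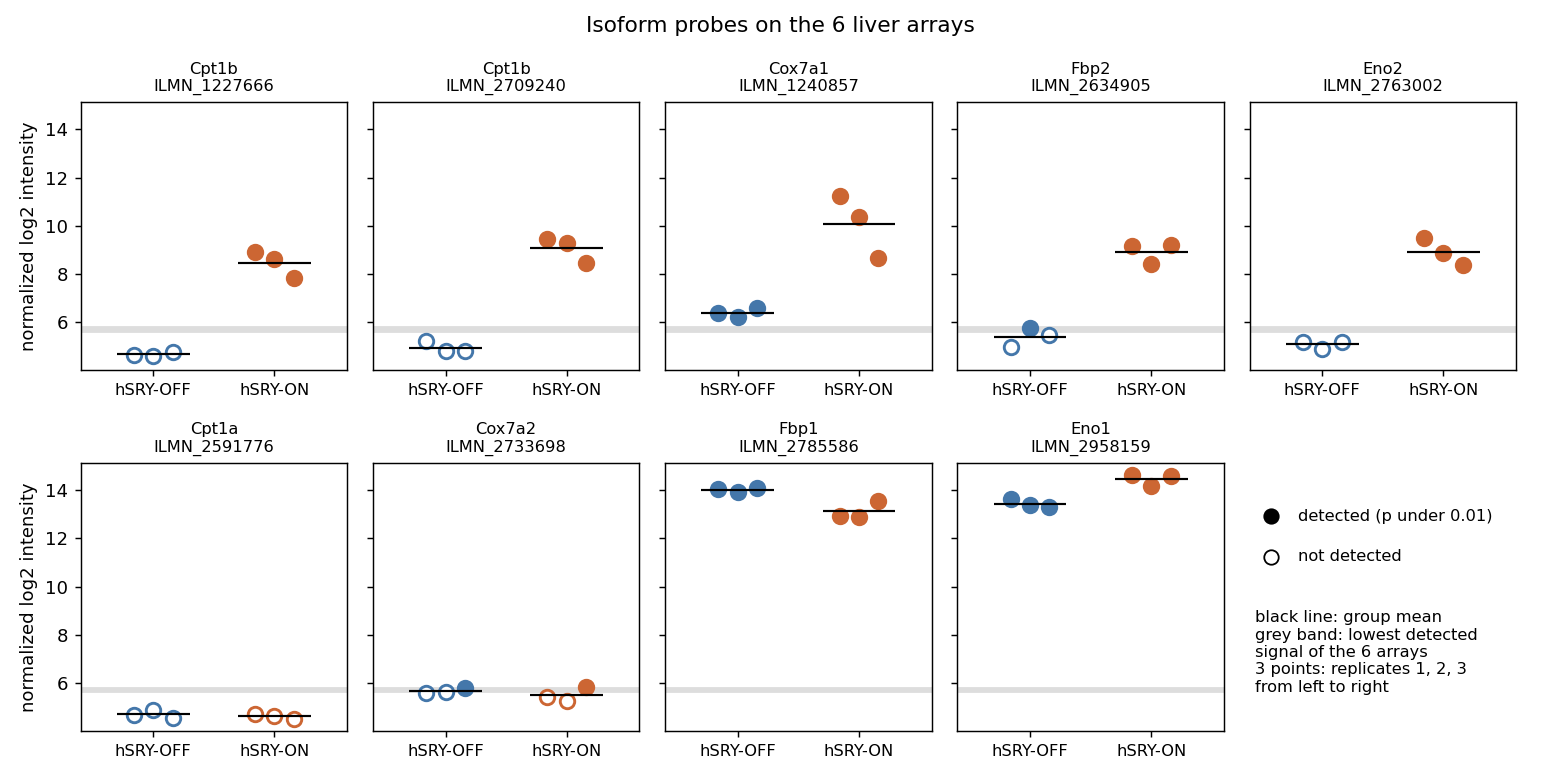
Normalized log2 intensity of each isoform probe in the 3 hSRY-OFF and 3 hSRY-ON livers, with filled points for detected and open points for undetected probes, a line at the group mean and a grey band at the lowest detected signal of the arrays. The extrahepatic forms in the upper row go from near or under the band to between 7.83 and 11.22, while Cpt1a and Cox7a2 stay near or under it and Fbp1 and Eno1 lie far above it in both groups.

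Cpt1b, the muscle form of the gate for fatty acid entry into mitochondria, was not detected in any hSRY-OFF liver and was detected in every hSRY-ON liver by both of its probes. With the probe ILMN_2709240, the log2 intensities of hSRY-OFF replicates 1, 2 and 3 were 5.22, 4.79 and 4.80, and those of hSRY-ON replicates 1, 2 and 3 were 9.45, 9.29 and 8.45. The hSRY-ON values all lay above the hSRY-OFF values, with replicate 3 the lowest of them. The means were 4.94 ± 0.24 and 9.06 ± 0.54 (SD, n = 3 each), a difference of 4.13 (SE 0.27). Because the hSRY-OFF signal was not well above background, the change is bounded, on the background-corrected scale used here, as at least 10.0-fold higher. Such a bound sets the hSRY-ON mean against the mean of the lowest detected signal on each hSRY-OFF array, and it moves with the correction. With an offset of 50 the log2 difference of this probe was 3.14, and without background correction 2.14. The second probe, ILMN_1227666, gave 4.68 ± 0.09 against 8.45 ± 0.56, a difference of 3.77 (SE 0.26) and a bound of at least 6.53-fold. Before correction its intensities were 138 to 144 in hSRY-OFF and 316 to 665 in hSRY-ON, and the order of the hSRY-ON replicates was the same as for the first probe.

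Cpt1a, the liver form, was not detected by its single probe on any of the 6 arrays. Its uncorrected intensities lay between 128 and 156 in hSRY-OFF and between 124 and 149 in hSRY-ON. This probe carries no information on the level of Cpt1a in these livers, a gene that liver is known to express, and no difference between the 2 forms of CPT1 can be read. The brain form, Cpt1c, was not detected on any array either.

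Cox7a1, the heart and muscle subunit of cytochrome c oxidase, was detected on all 6 arrays. Its log2 intensities were 6.37, 6.22 and 6.60 in hSRY-OFF replicates 1, 2 and 3 and 11.22, 10.35 and 8.67 in the hSRY-ON replicates. The groups did not overlap, but hSRY-ON replicate 3 lay far below the other hSRY-ON livers. The means of 6.40 ± 0.20 and 10.08 ± 1.30 (SD, n = 3 each) differed by 3.68 (SE 0.57), which is 12.8-fold. Without hSRY-ON replicate 3 the difference was 4.40, and without hSRY-ON replicate 1 it was 3.11. Among the members Cox7a1 had the widest spread within hSRY-ON, with uncorrected intensities of 480 to 2666 against 200 to 218 in hSRY-OFF.

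Cox7a2, the form of liver and most other tissues, was detected in replicate 3 of each group only, and so was not tested. Its log2 intensities averaged 5.66 ± 0.10 and 5.51 ± 0.28 in the hSRY-OFF and hSRY-ON livers (SD, n = 3 each) and overlapped at the edge of background. Cox7a2l, a related subunit gene that acts in supercomplexes of the respiratory chain, was detected on every array and rose by 0.84 (SE 0.19, adjusted p = 0.0140 in limma's test). It went from 10.96 ± 0.21 to 11.80 ± 0.30.

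Fbp2, the muscle fructose bisphosphatase, was detected in 1 of 3 hSRY-OFF livers and in all hSRY-ON livers. The log2 intensities were 4.96, 5.77 and 5.49 in hSRY-OFF replicates 1, 2 and 3, of which replicate 2 was detected, and 9.15, 8.41 and 9.21 in the hSRY-ON replicates. The lowest hSRY-ON liver stood well above the highest hSRY-OFF liver. The means of 5.41 ± 0.41 and 8.92 ± 0.44 (SD, n = 3 each) differed by 3.52 (SE 0.28), or by 3.17 with the undetected arrays set to their lowest detected signal. Here replicate 2, and not replicate 3, was the lowest of the hSRY-ON livers.

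Fbp1, the liver form and the gene next to Fbp2, was among the bright probes in every liver. It read 14.07, 13.93 and 14.08 in hSRY-OFF and 12.93, 12.88 and 13.57 in hSRY-ON replicates 1, 2 and 3. The means were 14.03 ± 0.08 and 13.13 ± 0.38 (SD, n = 3 each), a difference of -0.90 (SE 0.20) and thus 1.87-fold lower, and the groups did not overlap. Within each array the log2 ratio of the Fbp2 to the Fbp1 probe was taken and compared between groups, which cancels what the array shares. This ratio was higher in hSRY-ON by 4.42, where the replicates had an SD of 0.47 and 0.37 in the hSRY-OFF and hSRY-ON livers, and by 4.07 with undetected arrays at their lowest detected signal. The difference shows an unequal change of the genes, and does not give their relative abundance.

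Eno2, the neuronal enolase, was not detected in any hSRY-OFF liver and was detected in every hSRY-ON liver. The log2 intensities were 5.19, 4.87 and 5.20 in hSRY-OFF and 9.51, 8.88 and 8.39 in hSRY-ON replicates 1, 2 and 3. All hSRY-ON livers lay above all hSRY-OFF livers. The means of 5.09 ± 0.19 and 8.93 ± 0.56 (SD, n = 3 each) differed by 3.84 (SE 0.27), a change of at least 9.10-fold on the same scale. The difference was 2.94 with an offset of 50 and 1.98 without background correction. Uncorrected intensities were 150 to 167 in hSRY-OFF and 412 to 939 in hSRY-ON.

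Eno1, the widespread enolase, was bright in every liver and higher in hSRY-ON. It read 13.64, 13.37 and 13.31 in hSRY-OFF and 14.64, 14.16 and 14.58 in hSRY-ON replicates 1, 2 and 3. The means of 13.44 ± 0.18 and 14.46 ± 0.26 (SD, n = 3 each) differed by 1.02 (SE 0.17), which is 2.02-fold, without overlap. Both enolases were thus higher, unlike the fructose bisphosphatases, of which one was higher and one lower. The within-array ratio of the Eno2 to the Eno1 probe was higher in hSRY-ON by 2.82, with an SD of 0.21 and 0.57 in hSRY-OFF and hSRY-ON, by 2.17 with undetected arrays at their lowest detected signal and by 0.97 without background correction. Eno3, the muscle enolase, read 7.0 ± 0.21 and 7.35 ± 0.08 (SD, n = 3 each), and its difference of 0.35 (SE 0.14) missed the threshold with an adjusted p of 0.0977 in limma's test.

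**Figure D2:**
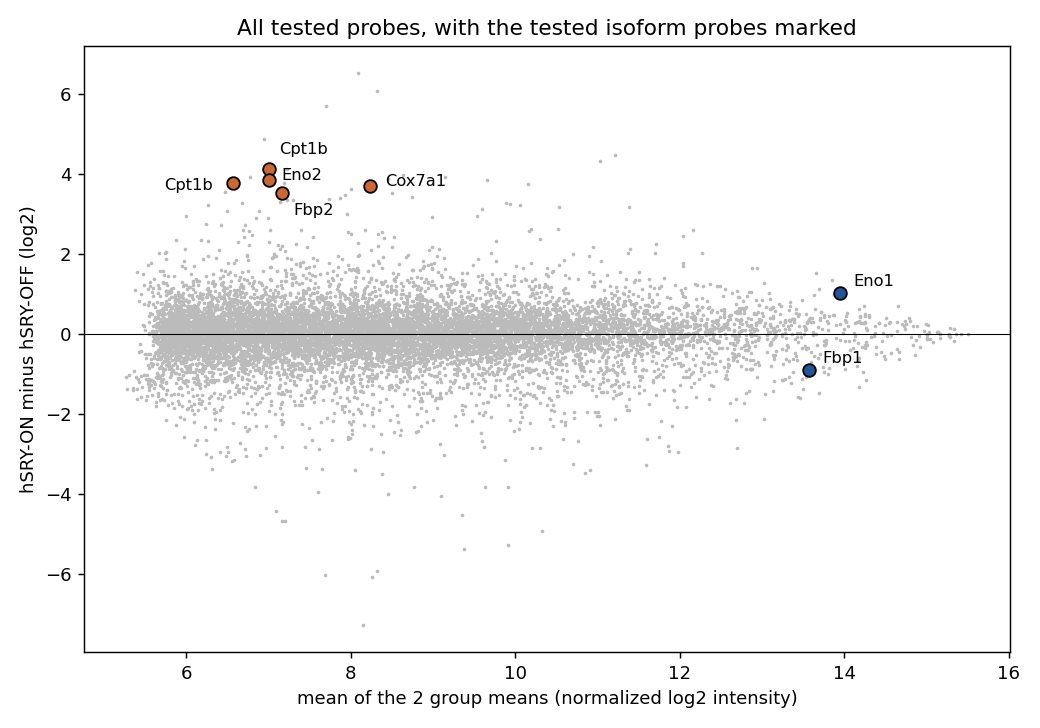
Difference between hSRY-ON and hSRY-OFF (log2) against the mean of the group means (normalized log2 intensity) for the 10734 tested probes in grey, with extrahepatic members in orange and liver members in blue. The extrahepatic members lie near the top, at 3.52 to 4.13, over dim to middling means, and Fbp1 and Eno1 lie at the bright end on either side of 0.

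The members ordered the hSRY-ON livers differently. Replicate 3 was the lowest for Cpt1b, Cox7a1 and Eno2, and for Fbp1 it was the hSRY-ON liver nearest to hSRY-OFF. For Fbp2 and Eno1 replicate 2 was the lowest. The probes whose values over the 6 arrays were most like those of each member were found by Pearson's r, which here rests on groups that stand apart, so that 2.59% to 5.72% of all tested probes exceeded 0.95 with a member. The nearest had r of at least 0.996. For Cpt1b these were Acta2, Mcam and Cybrd1, for Cox7a1 Calr3, Dpep2 and Rbbp7, and for Eno2 Pkn2, Cdkn1a and Pfkp. For Fbp2 they were Sirt2, Mospd1 and Coro1c, for Eno1 Plekhg2, Upp1 and Smpdl3b, and for Fbp1 Tk1, Arsg and Tyms-ps.

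A list of 18 further pairs of enzymes and transporters was read next, each with an extrahepatic and a liver form. Like all gene lists here, it was chosen with earlier results of these data known, so its counts are a description. Of the extrahepatic forms 8 probes were tested, of which 5 were higher and 0 lower in hSRY-ON in limma's test (0 lower also at an unadjusted p under 0.05), with a median difference of 0.57. Of the liver forms 24 probes were tested, of which 3 were higher and 7 lower, with a median of -0.21. The 8 extrahepatic probes were of 5 genes, 4 of them higher. The 24 liver probes were of 16 genes, 3 of them higher and 4 lower. With 1 probe per gene, 3 liver forms were higher and 3 lower. Over all tested probes the median was 0.02, with 15.8% higher and 17.3% lower. Most muscle forms could not take part. The probes of Pygm, Gys1, Pgam2, Phka1, Phkg1, Ppp1r3a, Cox8b, Slc25a4, Ampd1 and Arg2 did not reach the test, so a count over the extrahepatic forms describes the few that were detected.

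Both forms were tested in 5 pairs, and in 4 of them the difference of the extrahepatic form was the higher one. Pkm, the pyruvate kinase of muscle and growing tissues, rose by 1.35 (SE 0.20, adjusted p = 0.00296 in limma's test), while Pklr, that of liver and red cells, fell by 0.88 (SE 0.18, adjusted p = 0.0109) and by 0.93 on its second probe, ILMN_2944041. This was the 1 pair with opposite calls. Mat2a, the extrahepatic methionine adenosyltransferase, rose by 1.0 (SE 0.16, adjusted p = 0.00394), against -0.04 for the liver form Mat1a (adjusted p = 0.866). A second, dim probe of Mat2a gave 0.13 and missed the threshold (adjusted p = 0.602).

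Cox6a2, like Cox7a1 a heart and muscle subunit of cytochrome c oxidase, was not detected in any hSRY-OFF liver and was higher by 1.21 (SE 0.27, adjusted p = 0.0135 in limma's test), at least 1.44-fold, but it too was tested only through its hSRY-ON arrays and so had to differ. Without background correction its difference was 0.40. With Cox6a2 left out, a choice made after seeing the data, 4 of 7 extrahepatic probes were higher, with a median of 0.53, and in 3 of 4 pairs the extrahepatic difference was the higher one. Its counterpart Cox6a1 differed by 0.24 and missed the threshold (adjusted p = 0.229). Phosphofructokinase went the other way: the liver form Pfkl rose by 1.26 (SE 0.13, adjusted p = 0.000770), more than the muscle form Pfkm, which rose by 0.62 (SE 0.16, adjusted p = 0.0212) and 0.53 on 2 of 3 probes. A dimmer second probe of Pfkl gave 0.13 and missed the threshold (adjusted p = 0.652). The glucose transporters Slc2a4 and Slc2a2 differed by 0.07 and -0.30, and neither passed.

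Among liver forms whose partner was not tested, the changes ran in both directions. Gls2, the liver glutaminase, fell by 1.14 (SE 0.25, adjusted p = 0.0130 in limma's test) and 0.95 on its 2 probes. Pygl, the liver glycogen phosphorylase, fell by 0.77 (SE 0.12, adjusted p = 0.00356) and 0.50. Phka2, a regulatory subunit of liver phosphorylase kinase, passed the threshold on 1 of 3 probes, where it fell by 0.50 (adjusted p = 0.0398). Its other probes differed by -0.57 and -0.32 and missed the threshold (adjusted p = 0.0517 and 0.0707 in limma's test). The calls of Phka2, of both Pfkm probes and of 1 probe each of Gls2, Pygl and Pklr were lost when some single livers were left out. In contrast Pgam1, the widespread phosphoglycerate mutase, rose by 1.49 (SE 0.18, adjusted p = 0.00116) and Arg1, the urea cycle arginase, by 1.05 (SE 0.17, adjusted p = 0.00413).

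**Figure D3:**
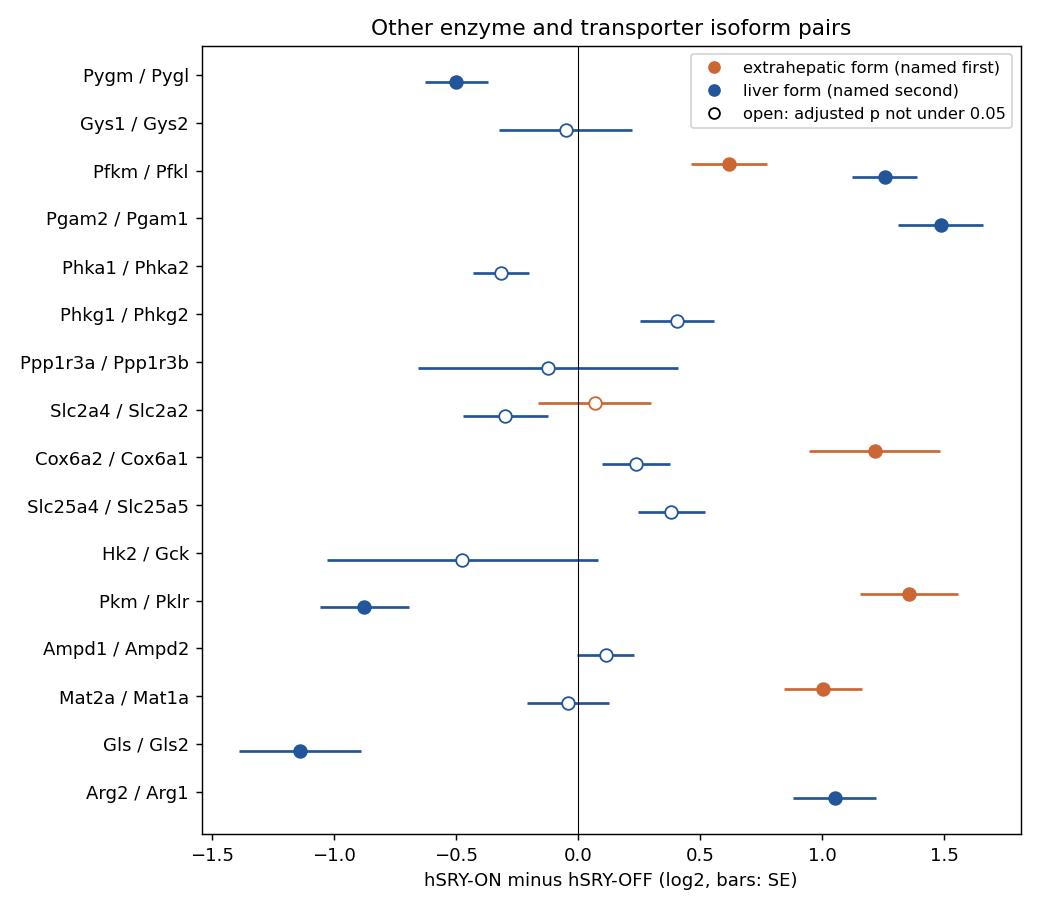
Difference between hSRY-ON and hSRY-OFF (log2, bars give the SE) of the extrahepatic form in orange and the liver form in blue for the pairs with a tested form, 1 probe per gene, filled where the adjusted p was under 0.05. The orange points that passed lie between 0.62 and 1.35, and the blue points that passed lie on both sides of 0, from -1.14 to 1.49.

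The reactions around each member were followed through lists of pathway genes. Over all tested probes 15.8% were higher and 17.3% lower, and the counts of the lists below stand beside these shares. In the carnitine shuttle, which carries fatty acids past CPT1, 17 probes were tested, 4 higher and 1 lower, with a median of 0.19. Slc22a5, the carnitine importer, rose on all of its 3 tested probes by 0.89 to 1.24, and the acyl-CoA synthetase Acsl4 rose by 1.34 (SE 0.20, adjusted p = 0.00321 in limma's test) on 1 probe, against 0.19 on a dim one that missed the threshold (adjusted p = 0.470). The acyl-CoA synthetase Acsl5 fell by 0.65 (SE 0.12, adjusted p = 0.00748). Cpt2, the enzyme of the inner membrane that works after CPT1, differed by -0.36 and missed the threshold (adjusted p = 0.146).

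Of cytochrome c oxidase subunits and assembly factors 21 probes were tested, 6 higher and 1 lower, with a median of 0.27. Among the 6 was Cox6a2, described above, which was tested only through its hSRY-ON arrays and so had to differ. The probe with the smallest p among them was Cox6b2, a subunit form best known from testis, which rose by 1.74 (SE 0.25, adjusted p = 0.00253 in limma's test). Cox6c rose by 0.68 (SE 0.13, adjusted p = 0.00828), and the assembly factor Surf1 fell by 0.71 on the probe that passed (SE 0.14, adjusted p = 0.00810).

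In gluconeogenesis and the fructose bisphosphate cycle, where the fructose bisphosphatases oppose phosphofructokinase, 16 probes were tested, 9 higher and 1 lower, with a median of 0.56. The 9 higher probes were of 5 genes, Pfkl, Pfkm, Pfkp, Aldoa and Tpi1, none of them particular to gluconeogenesis. G6pc differed by 0.36 and missed the threshold (adjusted p = 0.229 in limma's test), and Pck1, Pck2 and Slc37a4 did not reach the test. Pfkp, the platelet-type phosphofructokinase, rose by 3.92 (SE 0.32, adjusted p = 0.000290 in limma's test) on the brighter of its probes, from 7.19 ± 0.23 to 11.11 ± 0.67 (SD, n = 3 each). A second probe, not detected in any hSRY-OFF liver and so tested only through its hSRY-ON arrays, was at least 9.32-fold higher. The remaining probe was detected on no array. Aldoa, the muscle aldolase, rose by 2.13 (SE 0.15, adjusted p = 0.000185). The probe that fell was that of Pcx, pyruvate carboxylase, which opens gluconeogenesis, by 0.91 (SE 0.14, adjusted p = 0.00369). Around enolase, in lower glycolysis, 7 probes were tested, 3 higher and 2 lower, with a median of 0.35. Beside Pgam1, Pkm and Pklr, described above, Gapdh rose by 0.97 (SE 0.13, adjusted p = 0.00198).

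Since the members carry the names of other tissues, the markers of those tissues were read on the same arrays. The sample is whole liver, in which fewer cells of a type and less RNA per cell cannot be told apart. Of 11 hepatocyte marker genes with a probe, 9 were detected on all 6 arrays, Fgb on 1 array and Tat on none. Their summed intensity ran from 227893 to 233979 in hSRY-OFF and from 204861 to 228374 in hSRY-ON. The brightest of these probes weigh most in the sum. Trf stood at 15.32 and 15.25 and Apoa1 at 15.10 and 14.98 in hSRY-OFF and hSRY-ON, near the array maximum of 15.50. The sum can therefore hide changes of the dimmer markers. Of the 12 tested hepatocyte probes 4, of Alb, Ttr and Serpina1a, were lower and 0 higher. The shares over all tested probes were 17.3% lower and 15.8% higher. The Alb probe was dim, at 7.94 ± 0.38 in hSRY-OFF and 6.82 ± 0.24 in hSRY-ON (SD, n = 3 each).

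For skeletal muscle, 14 of 20 marker genes with a probe were detected on no array. Among them were the defining genes Ckm, Acta1, Mb, Myh1, Myh2, Myh4 and Tnnt3. Mylpf and Tnnt1 were detected on all 6 arrays, Tnni2 and Myog on some, and Actn3 and Atp2a1 on 1 hSRY-ON array each. The summed level was 494 to 562 in hSRY-OFF and 536 to 643 in hSRY-ON. Of the 4 tested probes of that list 0 passed the threshold in limma's test, and 0 had an unadjusted p under 0.05. For cardiac muscle 8 of 9 genes were detected on no array, while Myl4 was detected on all 6 and did not pass. The summed level was 261 to 326 in hSRY-OFF and 217 to 302 in hSRY-ON. Brown fat markers, Ucp1 and Cidea among them, were detected on none of the arrays for all 5 genes. For neurons, the cells Eno2 is known from, 7 of 10 genes were detected on no array, with sums of 260 to 296 and 216 to 299, and the 1 tested probe, of Map2, did not pass (adjusted p = 0.243).

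Most smooth muscle markers were, like the extrahepatic members, higher in hSRY-ON. Of 7 genes 6 were detected, 8 of 10 tested probes were higher and 0 lower, and their summed level was 3121 to 3842 in hSRY-OFF and 14008 to 16733 in hSRY-ON. The 8 higher probes were of 5 genes. The probes of Tagln, detected in 0 hSRY-OFF livers, and of Myh11, detected in 1, reached the test only through hSRY-ON, so Tagln had to differ. Acta2, smooth muscle actin, rose by 2.45 to 3.12 on its 4 probes, while Cnn1 was detected on no array and Smtn did not pass. Their part in the differences of Cpt1b, Cox7a1, Fbp2 and Eno2 was not tested. The white fat list had 1 gene detected, Plin4, in all hSRY-ON livers and no hSRY-OFF liver. It was at least 4.89-fold higher, but it was tested only through its hSRY-ON arrays and so had to differ. Adipoq, Lep, Plin1, Retn and Cfd were detected on no array. Erythroid markers summed to 64162 to 83397 in hSRY-OFF and 81174 to 93949 in hSRY-ON, with 2 of 8 tested probes higher and 0 lower. Hba-a1 was the brightest probe of all 6 arrays and held at the top of the scale; with it left out, a choice made after seeing the data, the erythroid sums were 17930 to 37165 and 34943 to 47717. Macrophage markers summed to 13677 to 17058 and 10815 to 13455, with 1 of 12 tested probes higher and 4 lower. Over all tested probes 15.8% were higher and 17.3% lower. Neutrophil markers summed to 45328 to 52288 in hSRY-OFF and 30003 to 90688 in hSRY-ON, the highest sum being that of hSRY-ON replicate 3, the hSRY-ON liver with the lowest Cox7a1. The part of these in the members' differences was not tested either.

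**Figure D4:**
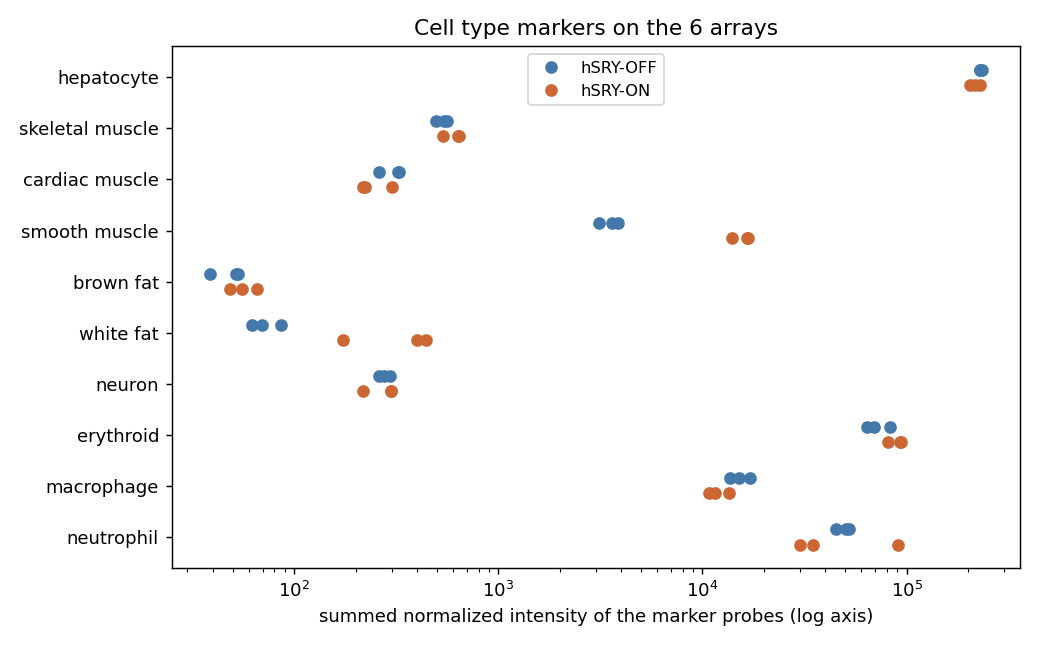
Summed normalized intensity of the probes of each marker list (log axis) in every hSRY-OFF and hSRY-ON liver. The smooth muscle and white fat sums of the hSRY-ON livers lie above those of hSRY-OFF, with Plin4 the only white fat gene detected. The skeletal muscle, cardiac muscle, white fat, brown fat and neuron sums lie at 643 or less in both groups.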

How the data were processed

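Male livers at postnatal day 6 were compared, 3 hSRY-OFF with 3 hSRY-ON. The authors hybridised biotin-labelled cRNA and deposited, per the file headers, 1 mean bead intensity and 1 detection p-value per probe and array, not normalized; 0 columns lacked a sample. Outlier removal by the scanner software, slides and scan dates were not used here, and a genome build was not given in the sources used here. Groups and replicate numbers come from the labels; the study's methods give 3 mice per group, and p-values measure only the spread between these samples. The intensities were background-corrected from the detection p-values (limma 3.58.1 in R 4.3.3, nec, offset 16), quantile-normalized and set on a log2 scale. Probes with a detection p-value under 0.01 on at least 3 of 6 arrays were fitted with lmFit and eBayes and adjusted by Benjamini-Hochberg over all of them, two-sided. TCC, named in the methods, takes counts and was not applied. Array signal has no read depth, and the number of arrays limits the precision. Of the probe symbols 14307 were current in the RefSeq table of GRCm38.p6, 2927 matched through an older name and 904 did not match; the array's names were kept for the members. The procedure was tested on simulated data. The members and all gene lists were chosen with earlier results of these data known. Named were all members, the related genes Cpt1c, Cox7a2l and Eno3, and both forms of each further pair with a called form. In each pathway list up to 3 called genes per direction were named by smallest p. Cpt2, Slc2a4, Slc2a2, Tpi1, G6pc, Pck1, Pck2, Slc37a4 and the marker genes were named after their values were seen. Of several probes of a gene, the one detected on most arrays, then the brightest, stands for it in pair contrasts and figures. Alternatives covered background correction, offset, normalization, filter, variance model, threshold, replicate block and each array left out. One further pair and 1 pathway gene are not reported here. Brain, heart and lung arrays were not analysed here.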

Additional observations from a re-analysis of the deposited data

How the results depend on the processing

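For the 7 tested member probes and the Fbp2 minus Fbp1 and Eno2 minus Eno1 contrasts, the sign of the difference was kept under the alternatives run, and the size of the dim ones was not. Dim values depend on the background: without background correction, with normexp that ignores the detection p-values, and with an offset of 50, the Fbp2 minus Fbp1 contrast was 2.77, 3.39 and 3.66 and the Eno2 minus Eno1 contrast 0.97, 1.65 and 1.92. At the main offset, with undetected arrays at their lowest detected signal, the Eno2 minus Eno1 contrast was 2.17. Leaving out each array, these contrasts ran from 4.18 to 4.65 and from 2.61 to 3.18. The difference of the dim members Cpt1b, Fbp2 and Eno2 fell to 1.77 to 2.14 without background correction, and that of Cox7a1 to 2.56, against 3.11 to 4.40 with each array left out. At an adjusted p under 0.01, 693 probes were higher and 972 lower over the array, and 5 probes of the further pairs were higher and 1 lower. Without 1 array the counts over the array ran from 893 to 1944 higher and from 1141 to 2116 lower, and those of the further pairs from 6 to 9 higher and from 3 to 7 lower. The lowest overall counts came without hSRY-OFF replicate 1, where Fbp1 also missed the threshold, followed by 975 and 1191 without hSRY-OFF replicate 2. Of the 15 called probes of the further pairs, those of Phka2, Gls2 (ILMN_2762640), Pfkm, Pygl (ILMN_2859847) and Pklr (ILMN_2944041) lost the call under some alternatives at the threshold of 0.05, 27 times in all, against 183 times kept and 0 reversed. At 0.01, 9 of the 15 lost it, among them Cox6a2 and all probes of Gls2 and Pklr. Without the 1 probe detected on no hSRY-OFF array, an alternative added after seeing the data, 7 probes were higher and 7 lower. Median scaling moved the median over all probes by -0.06. Replicate numbers shared by the groups did not pair the samples, as deviations of same-numbered livers correlated at 0.02, 0.10 and 0.05. With the replicate block, 1565 probes were higher and 1645 lower over the array, 9 and 5 in the further pairs, and Phka2 and that probe of Gls2 lost the call. Signal over background sets the limit for Cpt1a, detected on no array, and Cox7a2, detected on 1 array per group.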
